A study of Mus musculus with 13 samples.

Results

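Transcripts of 8 genes typical of double-positive (DP) thymocytes were followed in sorted mature CD4 single-positive (CD4SP) thymocytes. The genes were Rag1, Rag2, Dntt, Arpp21, Ptcra, Aqp11, Cd1d1 and Plxnd1, chosen by name out of 35906 genes with a transcript in the data. RNA sequencing covered 13 libraries, each from 1 mouse and each of M2 thymocytes, the most mature CD4SP stage, sorted as CD69-MHCI+ cells. All mice carried the Lm54 transgenic T cell receptor (TCR), which recognises a peptide of listeriolysin O (LLO), on a Rag1-/- background. Before stimulation, 5 CtslΔTEC mice were compared with 4 control mice. After 4 h with plate-bound LLO:I-Ab monomer at 1 µg/ml and soluble anti-CD28 at 250 ng/ml, 2 CtslΔTEC mice were compared with 2 control mice. CtslΔTEC mice lose cathepsin L in thymic epithelial cells through Foxn1-cre, while their thymocytes keep the gene. The labels give the controls as Ctsl fl/fl (WT), and the study's methods describe C57BL/6J mice of both sexes. The sex of single mice is not in the labels.

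DP thymocytes express CD4 and CD8 together and rearrange the TCR alpha locus. RAG1 and RAG2 form the recombinase that cuts the gene segments, and terminal deoxynucleotidyl transferase (TdT), encoded by Dntt, adds nucleotides at the joints. Ptcra encodes the pre-TCR alpha chain, which pairs with the TCR beta chain before the alpha chain is made. Cd1d1 encodes the CD1d molecule with which DP thymocytes present lipids to developing natural killer T cells, and Plxnd1 encodes plexin D1, a semaphorin receptor that guides thymocyte migration. Arpp21 encodes an RNA-binding protein and hosts the microRNA gene Mir128-2 in an intron, and Aqp11 encodes an intracellular aquaporin. Recombinase transcription ends after positive selection, so mature CD4SP cells are known for low levels of Rag1 and Rag2 transcripts.

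In unstimulated M2 cells, 5 of the 7 genes tested (Rag1, Dntt, Arpp21, Aqp11 and Cd1d1) were higher in CtslΔTEC than in control mice, where 6.42% of all genes tested were higher and 8.36% lower. Plxnd1 and Ptcra did not pass the test, and Rag2 was too low to be tested. With the level of Y-linked transcripts as a covariate, only Dntt of these 5 was still called, and genes called fell from 1943 to 432. The fitted differences were then 1.75 for Rag1, 0.83 for Arpp21, 0.34 for Cd1d1 and 0.43 for Aqp11. Without the covariate they were 1.81, 0.89, 0.38 and 0.64. Dntt had the largest fitted difference, 1.84 on the log2 scale. After stimulation, Dntt no longer passed the test, Cd1d1 was called lower and Arpp21 higher in CtslΔTEC cells, and neither call held when only the 4 stimulated libraries were fitted, with limma on TPM or without control mouse 6. Stimulation itself came with a fall of Dntt, Cd1d1, Rag1, Aqp11, Arpp21 and Plxnd1 in both genotypes. Within the 5 unstimulated CtslΔTEC mice, Rag1, Rag2 and Ptcra were spread more widely between mice than Dntt and Cd1d1.

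The upstream sequences of the genes of recombination and pre-TCR assembly are shown because Rag1, Rag2 and Ptcra ranged more widely between CtslΔTEC mice than Dntt. Rag2 and Ptcra held few counts and also varied between control mice. A link between these sequences and the levels was not tested. Each is the 250 bases before the RefSeq transcription start in GRCm38.p6, 5′ to 3′ in the direction of the gene, with every E-box (CANNTG, the motif class of E proteins, searched on both strands, which it reads alike) in capitals.
Rag1 chr2:101649533-101649782 (minus strand): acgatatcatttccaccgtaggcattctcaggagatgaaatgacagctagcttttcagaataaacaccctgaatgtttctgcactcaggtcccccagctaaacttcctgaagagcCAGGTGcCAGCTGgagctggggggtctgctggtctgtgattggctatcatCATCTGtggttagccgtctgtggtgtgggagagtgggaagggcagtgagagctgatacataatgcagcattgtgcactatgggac
Rag2 chr2:101624462-101624711 (plus strand): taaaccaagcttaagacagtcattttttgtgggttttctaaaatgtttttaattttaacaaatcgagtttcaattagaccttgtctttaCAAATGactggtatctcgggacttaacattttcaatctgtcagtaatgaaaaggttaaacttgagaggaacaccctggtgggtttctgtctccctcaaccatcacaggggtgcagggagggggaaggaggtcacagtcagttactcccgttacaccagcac
Ptcra chr17:46763713-46763962 (minus strand): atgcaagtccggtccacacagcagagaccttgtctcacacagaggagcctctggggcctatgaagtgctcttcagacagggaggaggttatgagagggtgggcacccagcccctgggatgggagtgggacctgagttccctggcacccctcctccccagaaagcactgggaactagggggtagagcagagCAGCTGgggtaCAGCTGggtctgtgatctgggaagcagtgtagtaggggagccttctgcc
Dntt chr19:41029025-41029274 (plus strand): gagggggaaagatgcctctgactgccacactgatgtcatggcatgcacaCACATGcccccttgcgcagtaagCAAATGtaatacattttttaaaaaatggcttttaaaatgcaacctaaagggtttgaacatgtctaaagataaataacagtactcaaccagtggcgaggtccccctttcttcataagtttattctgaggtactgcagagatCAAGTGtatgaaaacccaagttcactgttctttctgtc
Rag1 and Dntt each held 3 matches, Ptcra 2 and Rag2 1. Of the other genes with a single window, Aqp11 held 1 and Plxnd1 0. Of 32851 RefSeq windows of the same length, 66.2% held at least 1 match, 31.8% at least 2 and 12.2% at least 3. In the Rag1 window the CAGGTG match lies next to CAGCTG, and 17.2% of all windows held CAGGTG or its complement CACCTG. Arpp21 had 9 windows and Cd1d1 had no entry.

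Libraries of unstimulated cells held 25692380 to 39127833 estimated counts and those of stimulated cells 8085463 to 27184520. Levels within a gene are given as CPM, counts scaled to a common library total after TMM normalization, and levels between genes as TPM, which also accounts for transcript length. Ctsl itself was 11.5 to 18.0 CPM in unstimulated CtslΔTEC and 6.38 to 8.95 CPM in control thymocytes, which says nothing of the deletion in epithelium. Cd4 was at 1013 to 1058 CPM in CtslΔTEC and 1137 to 1170 CPM in control cells. DP cells express it too, so its level does not tell mature CD4SP from DP cells. Siglech, which marks plasmacytoid dendritic cells that can transcribe Rag and Ptcra, was at most 0.0762 CPM in unstimulated cells. Ly6d, another gene listed for these dendritic cells, was 0.0881 to 1.15 CPM in CtslΔTEC and at most 0.337 CPM in control mice. Foxn1 of thymic epithelium was at most 0.0587 CPM in unstimulated cells. The summed plasmacytoid list was 28.7 to 36.3 CPM in CtslΔTEC and 28.5 to 32.3 CPM in control mice, the B-lineage list 2.08 to 3.11 and 2.34 to 2.82, the myeloid list 37.4 to 45 and 39.7 to 51.8, the erythroid list 43.5 to 175.2 and 50.5 to 94.3, and the thymic epithelial list 17.3 to 24.4 and 13.6 to 17.5. Of these lists, the thymic epithelial sum was higher in all CtslΔTEC mice but mouse 2 than in every control mouse, and of its genes Ctsl and Epcam were called higher and Prss16, a cortical epithelial protease gene, lower (-1.12). Of the myeloid list, 1 of 10 genes tested was called higher, Csf1r (1.30), and 1 lower, Itgam. The part of the cells behind these lists in the results was not tested.

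Rag1 (ENSMUSG00000061311, GRCm38 chr2:101638282-101649501, minus strand) is the gene disrupted in all of these mice. It nevertheless held over 3 counts in 12 of the 13 libraries. The files list 1 Rag1 transcript, Rag1-201, of 6608 bases and 2 exons, and it carried all of the gene's counts in every library. It held 469, 155, 713, 528 and 207 estimated counts in unstimulated CtslΔTEC mice 1 to 5 and 177, 81, 100 and 100 in control mice 1 to 4. Since a null allele can keep part of its locus and the files give 1 count for the whole transcript, these counts cannot tell reads of remaining sequence from reads of the deleted part, and they do not check the Rag1 genotype. A gene on the same strand as Rag1, B230118H07Rik, overlaps exons of Rag1 and Rag2 and held 46.0 to 118 counts in CtslΔTEC and 11 to 42 in control mice, so reads of these genes can be shared.

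Rag1 in unstimulated cells was 11.9, 4.55, 26.8, 16 and 5.25 CPM in CtslΔTEC mice 1 to 5, with a mean of 12.9 ± 9.10 (SD, n = 5). In control mice 1 to 4 it was 5.19, 2.87, 3.75 and 2.82 CPM, with a mean of 3.66 ± 1.11 (SD, n = 4). CtslΔTEC mice 1, 3, 4 and 5 were above every control mouse, mouse 5 only just, and mouse 2 lay inside the control range. The fitted log2 fold change was 1.81 ± 0.48 (SE), with an adjusted p of 0.0332 by edgeR's quasi-likelihood test. Of 13152 genes tested, 6.42% were called higher and 8.36% lower in CtslΔTEC cells at an adjusted p under 0.1, the threshold used throughout, against 5 higher of the 7 members that passed the count filter. The split of calls depended on the scaling, with 844 higher and 1099 lower after TMM and 1163 and 885 with library totals alone. With limma on log2(TPM + 1), which changes the test and the scale together, it was 818 and 686. The two-sided exact permutation test over all splits of the 9 mice gave p = 0.0556 for Rag1, and its smallest possible p is 0.00794. With the 6 libraries of the later file date alone, which leave out CtslΔTEC mice 1 and 3 and control mouse 4, the Rag1 difference was 1.12 with an adjusted p of 0.164 in edgeR.

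Rag2 (ENSMUSG00000032864, chr2:101624718-101632529, plus strand), the partner of RAG1, lies next to Rag1. Its estimated counts were 19, 5.59, 51, 45 and 4 in CtslΔTEC mice 1 to 5 and 9, 0, 8 and 8 in control mice 1 to 4. These correspond to 0.808 ± 0.797 CPM (SD, n = 5) and 0.197 ± 0.135 CPM (SD, n = 4). CtslΔTEC mice 1, 3 and 4 were above every control mouse and mice 2 and 5 were not. Rag2 was too low for the count filter of the unstimulated fit. The exact permutation test gave p = 0.206. The shorter transcript Rag2-202 held 8.8, 17.4 and 16.7 counts in CtslΔTEC mice 1, 3 and 4, and at most 2.01 in each other library.

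Ptcra (ENSMUSG00000036858, chr17:46755663-46763712, minus strand) followed the same mice. Its single transcript held 29, 5, 25, 22 and 3 estimated counts in CtslΔTEC mice 1 to 5 and 9, 1, 13 and 6 in control mice 1 to 4. Again CtslΔTEC mice 1, 3 and 4 lay above all controls and mice 2 and 5 inside their range. The fitted difference was 1.09 ± 0.72 (SE), with an adjusted p of 0.406 in edgeR and an exact permutation p of 0.341.

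Dntt (ENSMUSG00000025014, chr19:41029275-41059525, plus strand), the gene of TdT, separated the genotypes in every mouse. It was 68.5, 64.5, 88.4, 83.6 and 71.0 CPM in CtslΔTEC mice 1 to 5, with a mean of 75.2 ± 10.3 (SD, n = 5). In control mice 1 to 4 it was 27.3, 14.5, 20.5 and 22 CPM, with a mean of 21.1 ± 5.29 (SD, n = 4). Every CtslΔTEC mouse lay far above every control mouse. The fitted difference was 1.84 ± 0.16 (SE), with an adjusted p of 3.49e-05 in edgeR, and the exact permutation p was 0.00794, the smallest it can give. Most counts lay on Dntt-202, with 78.7% ± 4.2 (SD, n = 5) in CtslΔTEC and 83.1% ± 5.4 (SD, n = 4) in control mice, and most of the rest on Dntt-201. These shares overlapped between the genotypes while the levels did not.

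Arpp21 (ENSMUSG00000032503, chr9:112065091-112235938, minus strand) was 5.69, 5.29, 7.84, 6.16 and 4.18 CPM in CtslΔTEC mice 1 to 5 and 3.34, 3.05, 3.26 and 2.93 CPM in control mice 1 to 4. The groups did not overlap. The fitted difference was 0.89 ± 0.18 (SE), with an adjusted p of 0.00684 in edgeR and an exact permutation p of 0.0159. Of its 31 transcripts, 17 held over 3 counts in some library and 7 were at 0 throughout. The coding transcript Arpp21-229 took 29.8% ± 5.4 (SD, n = 5) of counts in CtslΔTEC and 21.1% ± 6.9 (SD, n = 4) in control mice. The non-coding Arpp21-218 took 30.5% ± 15.6 and 41.6% ± 4.3, over the same mice. The 9 transcripts that span the Mir128-2 hairpin (chr9:112118636-112118711) took 50.3% ± 16.2 (SD, n = 5) and 44.8% ± 4.8 (SD, n = 4). The ranges of all of these shares overlapped between the genotypes. The non-coding 2900079G21Rik, on the opposite strand, overlaps exons of Arpp21, and since kallisto by default does not use strand, reads of the overlap cannot be told apart.

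Aqp11 (ENSMUSG00000042797, chr7:97724006-97738289, minus strand) was 8.97, 7.46, 11.2, 10.2 and 8.19 CPM in CtslΔTEC mice 1 to 5 and 6.28, 5.14, 6.78 and 5.44 CPM in control mice 1 to 4. Every CtslΔTEC mouse lay above every control mouse. The fitted difference was 0.64 ± 0.14 (SE), with an adjusted p of 0.0134 in edgeR and an exact permutation p of 0.0159.

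Cd1d1 (ENSMUSG00000028076, chr3:86995834-86999441, minus strand) showed the smallest difference that passed the test. It was 62.9, 64.7, 74.4, 69.0 and 64.5 CPM in CtslΔTEC mice 1 to 5, with a mean of 67.1 ± 4.67 (SD, n = 5). In control mice 1 to 4 it was 53.1, 45.2, 52.8 and 55.0 CPM, with a mean of 51.5 ± 4.36 (SD, n = 4). The groups did not overlap. The fitted difference was 0.38 ± 0.08 (SE), with an adjusted p of 0.00709 in edgeR and an exact permutation p of 0.00794. With protein-coding transcripts alone it was 0.28 with an adjusted p of 0.172 in edgeR, and retained-intron transcripts held 42.9% ± 6.1 (SD, n = 5) of Cd1d1 counts in CtslΔTEC and 37.3% ± 3.3 (SD, n = 4) in control mice. The near-identical paralog Cd1d2, with which reads can be shared, was far lower, at 3.19 to 3.46 CPM in CtslΔTEC and 1.70 to 2.90 CPM in control mice.

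Plxnd1 (ENSMUSG00000030123, chr6:115954811-115995005, minus strand) did not separate the genotypes. It was 92.0, 55.4, 63.2, 63.5 and 56.9 CPM in CtslΔTEC mice 1 to 5 and 61.4, 59.3, 76.9 and 86.2 CPM in control mice 1 to 4. The ranges overlapped almost fully. The fitted difference was -0.09 ± 0.16 (SE), with an adjusted p of 0.787 in edgeR and an exact permutation p of 0.556, and its sign turned positive on TPM (0.16 with limma) and without control mouse 4 (0.01).

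**Figure D1:**
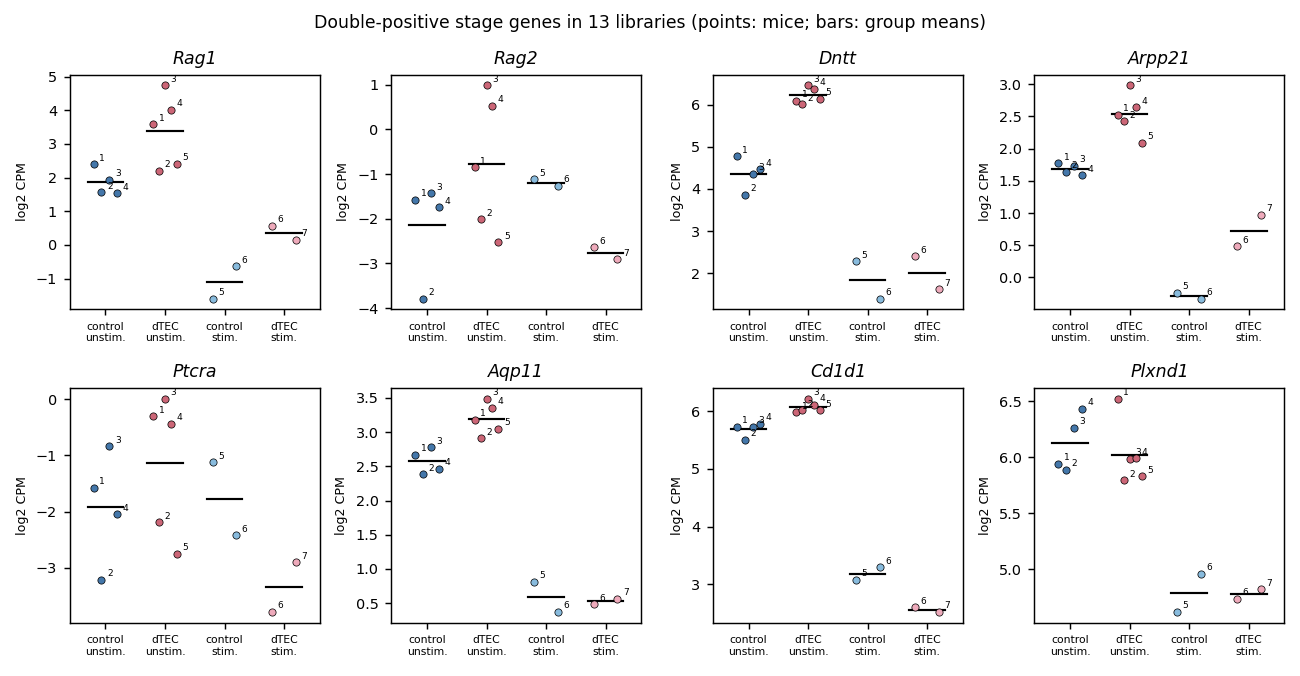
log2 CPM (prior count 2) of each of the 8 genes in 13 libraries, in 4 groups of control and CtslΔTEC (dTEC) mice before and after stimulation. Points are mice, numbered as in the labels, and bars are group means. Dntt, Arpp21, Aqp11 and Cd1d1 separate the 5 CtslΔTEC from the 4 control mice before stimulation, whereas Rag1, Rag2 and Ptcra overlap, and the vertical scale differs between genes.

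Of the 8 genes, 4 lay higher in CtslΔTEC cells with no overlap between unstimulated genotypes, Dntt, Arpp21, Aqp11 and Cd1d1, and 3 on the log2(TPM + 0.1) scale, where Aqp11 overlapped. Of all 13152 genes tested, 5.79% lay higher and 8.06% lower without overlap. The median fitted difference of the 7 genes tested was 0.89, beside 0.01 over all genes tested. All 5 calls stood in each of the 9 fits that left out 1 mouse, with the Rag1 difference between 1.37 and 2.04 and the Dntt difference between 1.70 and 1.99. With date as a factor, all 5 also stood, with Rag1 at 1.58 and Dntt at 1.82. Within the later file date alone, Dntt was 1.81, Arpp21 0.69, Aqp11 0.50 and Cd1d1 0.39, all still called by edgeR. The earlier date held CtslΔTEC mice 1 and 3 and control mouse 4, too few for a test of its own.

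The Y-linked gene Ddx3y was high in all 5 unstimulated CtslΔTEC mice and in 1 of 4 control mice, and 0 of 4 Y-linked genes passed edgeR's test between the genotypes, with 1 at an unadjusted p under 0.05. Ddx3y was 126.03 to 208 CPM in the 5 CtslΔTEC mice and 163 CPM in control mouse 3, against at most 0.0587 CPM in control mice 1, 2 and 4. With the Y-linked level as a covariate, Dntt was still called (1.86, adjusted p = 0.0145 in edgeR). Rag1 (1.75, adjusted p = 0.517), Arpp21 (0.83, 0.307), Aqp11 (0.43, 0.548) and Cd1d1 (0.34, 0.322) were not called in that edgeR fit. Control mouse 3 itself had 20.5 CPM of Dntt, 52.8 CPM of Cd1d1, 3.75 CPM of Rag1 and 3.26 CPM of Arpp21. Each was inside the range of the other control mice, while its 6.78 CPM of Aqp11 was the highest of the controls. The Y-linked level went largely with genotype in these mice, and 1 control mouse cannot tell their parts in the differences apart.

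The spread between CtslΔTEC mice separated the genes into those with wide and those with narrow ranges. The highest mouse exceeded the lowest 5.88-fold for Rag1, against 1.37-fold for Dntt, 1.18-fold for Cd1d1, 1.50-fold for Aqp11 and 1.88-fold for Arpp21. In control mice the ratio was 1.84 for Rag1 and 1.89 for Dntt. Ptcra was spread widely in both genotypes, 12.3-fold in CtslΔTEC and 13.7-fold in control mice, at 1 to 29 counts. Rag2 was spread 18.9-fold in CtslΔTEC mice, at 4 to 51 counts, and control mouse 2 held 0. Rag1, Rag2, Ptcra, Arpp21 and Aqp11 were each highest in mice 1, 3 and 4 and lowest in mice 2 and 5, with Rag1 and Aqp11 in the same order, and Dntt too was highest in mice 3 and 4 and lowest in mouse 2. Cd1d1 was also highest in mice 3 and 4 but lowest in mouse 1, and Dntt was lower in mouse 1 than in mouse 5. The order of the mice was thus shared only in part. Mice 1 and 3 are of the earlier file date and mice 2, 4 and 5 of the later, and the part of the date in this spread was not tested.

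Mki67, a marker of cycling cells that was chosen for display after its values were seen, was 8.82, 2.67, 16.2, 16 and 1.77 CPM in CtslΔTEC mice 1 to 5. In control mice 1 to 4 it was 11.3, 7.87, 9.48 and 12.3 CPM. Notch3, a receptor of early thymocytes, was 5.00, 0.587, 4.24, 3.89 and 0.786 CPM in CtslΔTEC mice 1 to 5 and 0.886 to 2.03 CPM in control mice. Ly6d, of the plasmacytoid list, was 0.737, 0.0881, 1.05, 1.15 and 0.101 CPM in CtslΔTEC mice 1 to 5, from 29, 3, 28, 38 and 4 counts, and at most 0.337 CPM in control mice, so it too was high in mice 1, 3 and 4. Hbb-bs, a haemoglobin gene, was 60.0, 20.1, 79.3, 20.1 and 39.1 CPM in CtslΔTEC mice 1 to 5, highest in mice 1 and 3. The part of other cells in the spread of Rag1 was not tested, and in sorted bulk RNA fewer cells of a type and less RNA per cell cannot be told apart.

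**Figure D2:**
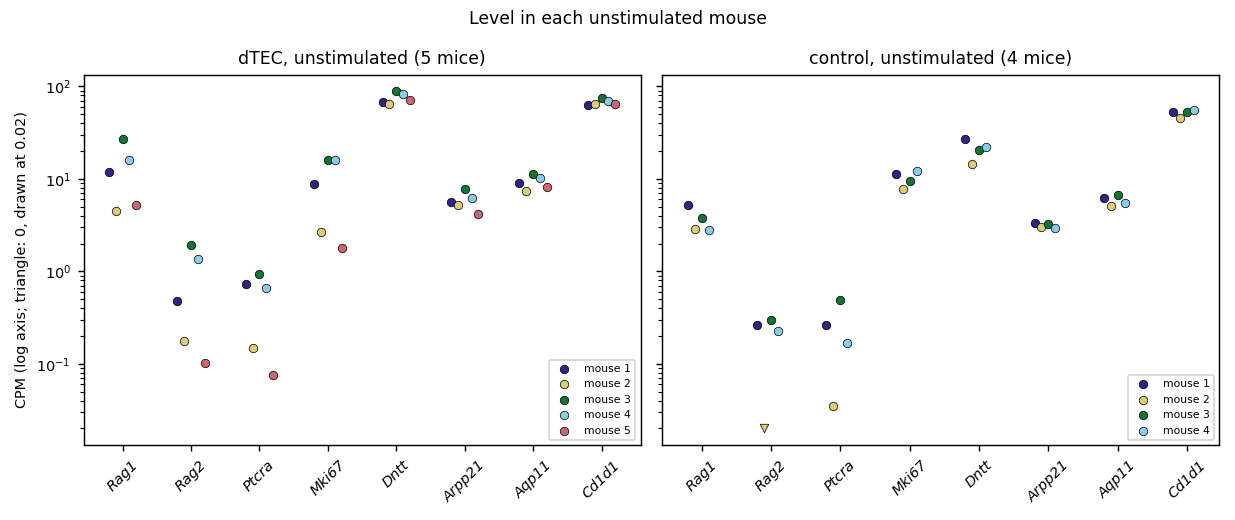
CPM on a log axis of Rag1, Rag2, Ptcra, Mki67, Dntt, Arpp21, Aqp11 and Cd1d1 in each unstimulated mouse, with 5 CtslΔTEC (dTEC) mice on the left and 4 control mice on the right. In CtslΔTEC mice, Rag1, Rag2, Ptcra and Mki67 are low in mice 2 and 5, while Dntt and Cd1d1 lie close together in all 5, and the triangle is control mouse 2, with 0 counts of Rag2.

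Per length, the order of the genes was much alike in both unstimulated groups. In CtslΔTEC mice Cd1d1 was highest at 82.5 ± 6.90 TPM (SD, n = 5), followed by Dntt at 59.0 ± 9.96 and Plxnd1 at 22.5 ± 4.80, and these 3 did not overlap. Aqp11 at 4.86 ± 1.09 TPM and Arpp21 at 4.63 ± 0.69 overlapped, as did Arpp21 and Rag1 at 2.70 ± 1.96. Ptcra at 0.683 ± 0.524 TPM and Rag2 at 0.460 ± 0.473 were lowest and overlapped. In control mice Cd1d1 was again highest at 60.6 ± 5.90 TPM (SD, n = 4), but Plxnd1 at 20.1 ± 5.03 and Dntt at 16 ± 4.43 overlapped, and Rag1 at 0.732 ± 0.245 lay below every Arpp21 value.

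Other genes that peak in DP cells, from a list of 13 that holds the coreceptor genes, gave 5 higher and 0 lower of 13 tested in unstimulated CtslΔTEC cells, with a median difference of 0.33. The list includes genes that the study named from these samples, so its direction is not independent evidence. Cd8a, a chain of the CD8 coreceptor, was 23.5 to 33.7 CPM in CtslΔTEC and 4.15 to 4.68 CPM in control mice (2.75 ± 0.12 SE, adjusted p = 2.76e-07 in edgeR). Cd8b1, the other chain, differed by 2.22 ± 0.10 (SE), and Tmie, which encodes a transmembrane protein first known from inner ear hair cells, by 1.96 ± 0.16 (SE), both also called by edgeR. Slc16a5, a monocarboxylate transporter gene, differed by 1.24 ± 0.07 (SE). Of 6 CD8 lineage genes, 4 were higher, Cd8a and Cd8b1 again with Cst7 (1.49) and Prf1 (0.46), and 1 was lower, the lineage factor gene Runx3 (-0.21). Of 14 mature CD4SP markers, 8 were lower and 2 higher, with Il7r lower by a log2 difference of -1.08 and Cd5 by -1.07. The part of remaining DP or CD8 lineage cells in these differences was not tested.

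Genes of the joining machinery, which completes the cuts made by the recombinase, were called about as often as all genes. Of 17 tested, 0 were higher and 2 lower by edgeR, the polymerase gene Poll (-0.41 ± 0.12 SE) and Trp53bp1 (-0.37 ± 0.06 SE), and the list's median was 0.04. Polm, which encodes a polymerase related to TdT, had an unadjusted p under 0.05 and did not pass the threshold (0.30 ± 0.12 SE, adjusted p = 0.146 in edgeR). Transcription factors known to act on the Rag locus gave 1 higher and 4 lower of 15 tested, with a median of -0.09. The higher one was Myb, at 95.3 to 111.6 CPM in CtslΔTEC and 13.5 to 20.9 CPM in control mice (2.68 ± 0.13 SE, adjusted p = 3.13e-07 in edgeR). Lower were Gata3 (-0.80 ± 0.09 SE), Foxo1 (-0.46 ± 0.07 SE), Runx1 (-0.28 ± 0.08 SE) and Ikzf1 (-0.27 ± 0.06 SE). Of the Notch and pre-TCR stage list, 5 of 10 genes were tested and 1 was higher, Il2ra (2.0 ± 0.20 SE), the gene of CD25. Il2ra is also 1 of 5 regulatory T cell markers, of which Ctla4 was higher too (1.66 ± 0.39 SE) and Ikzf2 lower (-0.72 ± 0.15 SE).

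After stimulation, the genotype comparison of the 8 genes rested on 2 mice against 2. Cd1d1 was 6.0 and 5.69 CPM in CtslΔTEC mice 6 and 7 and 8.40 and 9.76 CPM in control mice 5 and 6. Both CtslΔTEC mice were below both control mice, and the fitted difference was -0.65 ± 0.14 (SE), with an adjusted p of 0.0118 in edgeR. Arpp21 was 1.32 and 1.90 CPM in CtslΔTEC and 0.775 and 0.725 CPM in control mice, from 15 and 31 counts against 6 and 19. It differed by 1.15 ± 0.36 (SE), with an adjusted p of 0.0634 in edgeR. Of 14241 genes tested, 2.77% were called higher and 10.6% lower in stimulated CtslΔTEC cells, against 1 of each among the 8 members. Without control mouse 6 neither gene was called, with Cd1d1 at -0.53 (adjusted p = 0.102 in edgeR) and Arpp21 at 1.07 (0.228). The Arpp21 call was also lost without CtslΔTEC mouse 7 (0.83, adjusted p = 0.344 in edgeR) and without control mouse 5 (1.18, 0.164).

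Dntt was 5.21 and 3.0 CPM in stimulated CtslΔTEC mice 6 and 7 and 4.78 and 2.55 CPM in control mice 5 and 6. The pairs overlapped, the fitted difference was 0.28 ± 0.38 (SE), and the adjusted p was 0.726 in edgeR. Rag1 counts had fallen to 16 and 17 in CtslΔTEC and 2 and 15 in control mice, and the difference of 1.32 ± 1.05 (SE) did not pass the test. Aqp11 differed by 0.00 ± 0.30 (SE) and Plxnd1 by -0.02 ± 0.24 (SE), and neither passed. Rag2 held 1 and 1 counts in CtslΔTEC and 3 and 9 in control mice, and Ptcra 0 and 1.08 against 3 and 3, too few for a fold change.

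The change of the genotype difference on stimulation was tested directly by the interaction. It was -1.03 ± 0.16 (SE) for Cd1d1, with an adjusted p of 0.00497, and -1.55 ± 0.42 (SE) for Dntt, with an adjusted p of 0.0600, both by edgeR. For Cd1d1 the difference changed sign, from higher to lower in CtslΔTEC cells. Negative interactions were called for 4.88% of the 14241 genes tested and for these 2 of 8 members. The Dntt interaction was not called without CtslΔTEC mouse 3 (-1.43, adjusted p = 0.109 in edgeR), CtslΔTEC mouse 7 (-1.19, 0.230) or control mouse 5 (-1.18, 0.261). Arpp21, Rag1, Aqp11 and Plxnd1 had interactions of 0.26 ± 0.40 (SE), -0.49 ± 1.17 (SE), -0.63 ± 0.34 (SE) and 0.07 ± 0.28 (SE), none of which passed the test.

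**Figure D3:**
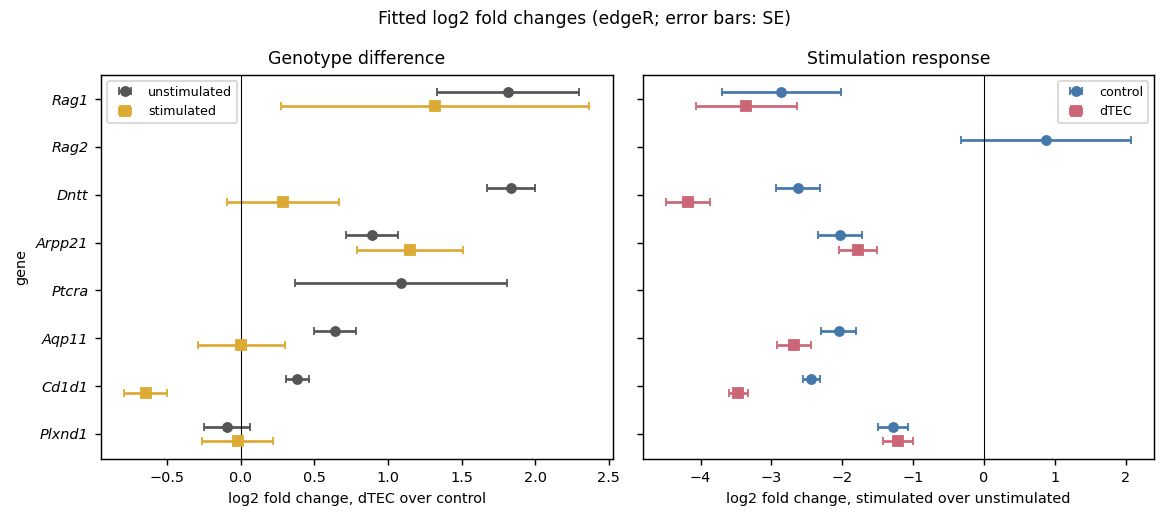
Fitted log2 fold changes by edgeR with SE, for CtslΔTEC over control on the left (unstimulated and stimulated) and for stimulated over unstimulated on the right (control and CtslΔTEC). Comparisons in which a group had at most 3 counts in every library are left out, as is Rag2 in the unstimulated genotype fit, where it was not tested. Cd1d1 lies at 0.38 before and -0.65 after stimulation, and Dntt falls by 2.63 in control and 4.18 in CtslΔTEC cells.

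Stimulated libraries carried far fewer transcripts of 6 of the 8 genes. Dntt fell from a mean of 21.1 to 3.67 CPM in control cells, by 2.63 ± 0.31 (SE) on the log2 scale, and from 75.2 to 4.10 CPM in CtslΔTEC cells, by 4.18 ± 0.31 (SE). Cd1d1 fell by 2.44 ± 0.12 (SE) in control cells and fell by 3.47 ± 0.13 (SE) in CtslΔTEC cells, and every stimulated library was below every unstimulated one for both genes. Rag1 fell by 2.86 ± 0.84 (SE) in control and 3.35 ± 0.72 (SE) in CtslΔTEC cells. Arpp21 fell by 2.03 ± 0.31 (SE) and 1.78 ± 0.27 (SE), and Aqp11 by 2.05 ± 0.25 (SE) and 2.69 ± 0.24 (SE). Plxnd1 fell least, by 1.29 ± 0.21 (SE) and 1.22 ± 0.21 (SE). All of these passed edgeR's test. They made 6 of 8 members in control cells, where 34.8% of all genes tested were called lower. Rag2 in control cells differed by 0.87 ± 1.2 (SE) and did not pass the test, at 3 and 9 counts after stimulation, and Ptcra, at 3 and 3 counts, gets no fold change.

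In CtslΔTEC cells all 8 members were called lower, where 38.2% of all genes tested were, and the calls of Rag2 (adjusted p = 0.0688 in edgeR) and Ptcra (0.0580) rest on stimulated libraries with at most 1.08 counts. The median change of all genes tested in CtslΔTEC cells was -0.06 after TMM and -0.21 with library totals alone. The stimulated libraries were all of 1 file date that no unstimulated library had. An effect of that date, or of the time in culture, cannot be told apart from that of the stimulus.

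The order of levels changed with stimulation. Plxnd1 became the highest per length, at 12.4 ± 0.53 TPM (SD, n = 2) in CtslΔTEC and 12.7 ± 1.24 TPM (SD, n = 2) in control cells, with Cd1d1 next at 6.44 ± 0.16 and 8.77 ± 2.26 TPM. Other DP genes did not all fall. Of the 13 listed, 9 were called lower and 3 higher in each genotype. Myb rose by 4.23 ± 0.14 (SE) in control and 2.41 ± 0.12 (SE) in CtslΔTEC cells, both called by edgeR, while Rag1 fell.

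The mix of transcripts changed with stimulation for Aqp11. The retained-intron transcript Aqp11-202, a single exon of 5798 bases, with other retained-intron models held 16.1% to 23.2% of Aqp11 counts in unstimulated CtslΔTEC mice and 15.5% to 26.1% in unstimulated control mice. After stimulation the share was 87.0% and 71.1% in CtslΔTEC mice 6 and 7 and 68.2% and 79.7% in control mice 5 and 6. All 4 stimulated libraries were above all 9 unstimulated ones, though the whole gene held only 12.6 to 31.9 counts in each. With protein-coding transcripts alone, Aqp11 fell by 3.81 in control and 4.36 in CtslΔTEC cells in edgeR, more than the 2.05 and 2.69 of the whole gene. Plxnd1 separated in the same direction at far lower shares, with 3.85% to 5.30% in the 4 stimulated libraries and 0.426% to 3.24% in the 9 unstimulated ones. The groups overlapped for Cd1d1, with a share of 37.7% and 60.5% in stimulated CtslΔTEC mice and 36.7% and 39.2% in stimulated control mice. Counts of transcripts of 1 gene share reads, as Dntt shows in stimulated CtslΔTEC mouse 7, where nearly all of the 49 counts went to Dntt-201.

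**Figure D4:**
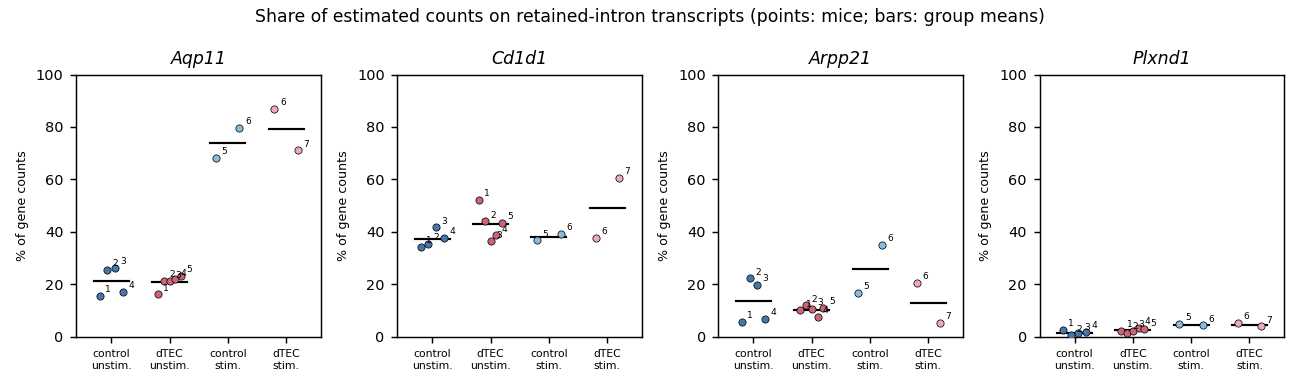
Share of each gene's estimated counts on retained-intron transcripts, in percent, for Aqp11, Cd1d1, Arpp21 and Plxnd1 in the 4 groups. Points are mice, numbered as in the labels, and bars are group means. For Aqp11 the 4 stimulated libraries lie between 68.2% and 87.0%, above the 26.1% of the highest unstimulated library.

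The genes most like each member over the 13 libraries were found by Pearson's r of log2 CPM among 10089 genes with a mean of at least 1. The 4 stimulated libraries lie apart from the 9 others and set much of each r, so r over the 9 unstimulated libraries is given after it, as a description. Rag1 was most like Arpp21 (0.96 and 0.92), Kdm3b (0.95 and 0.84) and Gprasp2 (0.95 and 0.81). Rag2 was most like Bub1b (0.82 and 0.85), Mybl2 (0.79 and 0.82) and Rrm2 (0.77 and 0.86), and Ptcra like Bub1b (0.81 and 0.70), Pck2 (0.79 and 0.79) and Zbed3 (0.79 and 0.80). Bub1b and Mybl2 are genes of cell division and Rrm2 of DNA synthesis.

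Dntt was most like Hsd17b11 (0.98 and 0.95), the clock gene Arntl (0.98 and 0.99) and Tmie (0.98 and 0.98). Arpp21 was most like Arntl (0.98 and 0.93), Haus3 (0.98 and 0.89) and Fanci (0.98 and 0.89). Aqp11 was most like Zfp831 (0.99 and 0.90), Dyrk2 (0.99 and 0.94) and Abca3 (0.99 and 0.93). Cd1d1 was most like Mgat1 (0.998 and 0.91), Cdk19 (0.996 and 0.83) and Ncapd2 (0.995 and 0.75), and Plxnd1 like Qsox1 (0.98 and 0.98), Coro7 (0.98 and 0.93) and AI413582 (0.98 and 0.84).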

How the data were processed

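RNA of sorted M2 CD4SP thymocytes was measured in 13 libraries, 1 per mouse. Groups and mouse numbers came from the labels. The authors quantified transcripts with kallisto (version 0.48) against the Ensembl annotation of the mouse and deposited an estimated count, which is not normalized, and a TPM value for each transcript. The labels name polyA RNA, the study's methods rRNA depletion. The methods state default parameters, under which kallisto does not use strand.

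Transcripts were summed to genes through GENCODE M21 of GRCm38, which is older than the authors' annotation. Of 117497 transcripts, 116397 matched, and the others held at most 0.461% of counts. Gene coordinates are those of this annotation. Promoter windows are RefSeq's for GRCm38.p6, found for 7 of the 8 members.

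Counts were rounded and tested in R 4.3.3 with edgeR 4.0.16 (TMM, filterByExpr, quasi-likelihood test, Benjamini-Hochberg adjustment over all genes tested, threshold 0.1). The unstimulated comparison used 9 libraries, and all others a 4-group model of 13. A group with at most 3 counts in every library got no fold change. The fits were tested on simulated data. The precision of a library is set by its depth, and 3 counts equal 0.0767 to 0.371 CPM. Alternatives were DESeq2 1.42.0, limma 3.58.1 on TPM, other scalings and filters, date, mouse number or Y-linked level as a term, and leaving out each mouse. The order of libraries within a group carries no meaning. The p-values set differences between groups against the spread between mice within groups. In the 4-group model that spread was estimated from all 13 libraries, so tests of the stimulated mice draw largely on the spread of unstimulated ones.

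The members and gene lists were chosen with earlier results of these data known. Named genes are the members, up to 4 genes per list with the largest differences, and the 3 genes most like each member. Mki67, Notch3, Polm, Ikzf1, Runx3, Ly6d and Hbb-bs were named after their values were seen.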

Additional observations from a re-analysis of the deposited data

Results flagged for a closer look

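The genotype difference of Cd1d1 and that of Dntt changed on stimulation by the test of the interaction, by -1.03 and -1.55 on the log2 scale. Both values stand on 2 stimulated mice of each genotype. A library lay far from the others of its group, by Dixon's test, in 2 of 16 groups of 4 or 5 libraries examined over the 8 members, where chance gives about 1 in 20 groups, or 0.8. Rag2 in unstimulated control mouse 2 was at -3.79 log2 CPM, from 0 counts where the other control mice held 8 or 9. Plxnd1 in unstimulated CtslΔTEC mouse 1 was at 6.52 log2 CPM, with the other mice of its group between 5.79 and 5.99.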

How the results depend on the processing

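Of the alternative values for counts of calls, 200 stayed within 1.5 times the main count and 24 did not. For single genes, 634 kept their direction and side of the threshold, 22 lost the call, 3 gained it and 28 changed sign. In unstimulated cells, 5 members and 1943 genes were called, against 1 member and 432 genes with the Y-linked covariate. Mouse numbers did not pair the mice (the same-numbered libraries' deviations correlated at -0.16, 0.35, -0.10 and -0.14). The replicate block moved the genes called to 1051, with 6 members called, Ptcra added at 1.47. Rag1 was not called with limma on log2(TPM + 1) (0.95, adjusted p = 0.120). The sign of Plxnd1 turned with limma on log2(TPM + 1) (0.16) and log2(TPM + 0.1) (0.17, also in the permutation test) and without control mouse 4 (0.0127, the highest value without 1 mouse, the lowest being -0.245). In stimulated cells, 2 members were called, against 1 at an adjusted p under 0.05, with at least 10 counts in every library or with protein-coding transcripts alone, and 0 with the 4 stimulated libraries alone (where 1127 genes were called, against 1898) or with limma on log2(TPM + 1) or log2(TPM + 0.1). In the interaction, an adjusted p under 0.05 gave 1 member and 471 genes, against 2 and 856. At least 10 counts in every library left 4 members tested and 4 called lower in stimulated CtslΔTEC cells.

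Leaving out 1 mouse gave 5 members and 1534 to 2343 genes called in unstimulated cells, 0 to 2 members and 945 to 2235 genes in stimulated cells, 1 to 2 members and 334 to 1227 genes in the interaction, and 6 to 8 members in the response of CtslΔTEC cells. Values that did not pass the test changed sign. The stimulated Aqp11 difference ran from -0.80 (limma on log2(TPM + 0.1)) and -0.33 (limma on log2(TPM + 1)) through -0.0074 (no filter) and -0.0026 (library totals) to -0.06 and -0.29 without CtslΔTEC mouse 7 or control mouse 6. It lay between -0.29 and 0.173 without 1 mouse. That of Plxnd1 was 0.0259 (upper quartile), 0.0273 (4 libraries alone), 0.0381 (at least 10 counts), 0.0177 (protein-coding alone), 0.0012 (DESeq2) and -0.172 to 0.161 without 1 mouse, and that of Dntt -0.259 to 0.65 without 1 mouse, with -0.13 and -0.26 without CtslΔTEC mouse 6 or control mouse 6. Interactions changed sign for Plxnd1 (-0.19 and -0.20 with limma, -0.0321 and -0.0749 without control mouse 4 or 5, up to 0.259), Rag1 (0.02 and 0.39 without CtslΔTEC mouse 3 or control mouse 6, down to -0.735) and Arpp21 (-0.0617 without CtslΔTEC mouse 7, up to 0.478). The causes were not tested. The shallowest library, of stimulated control mouse 5, held 8085463 counts.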
